A study of Homo sapiens with 3 samples.

Results

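This account describes 736 narrow MYC peaks, each at the end of a single protein-coding gene, out of 9818 peaks called in U2OS cells. The members were selected on 2 measured values, peak width and summit position. A member is under 500 bp wide and its summit, the base of highest signal, lies within 1000 bp of an annotated end of exactly 1 RefSeq protein-coding gene. They make up 7.50% of the list and 14.4% of the 5119 peaks at single gene ends. The other 4383 of those are 500 bp or wider and serve for comparison.

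MYC was mapped by ChIP-Rx in the parental form of U2OS, which is a line from a human osteosarcoma. In this form of ChIP-seq, cells of another species, here the mouse fibroblast line NIH3T3, are mixed in as a reference before precipitation. There were 2 libraries precipitated with an anti-MYC antibody, which the series calls biological replicates, and 1 input library without antibody. The labels name no treatment other than fixation, and the results rest on 1 list of peaks with no value per library. No replicate error or depth was therefore available. Intervals of shares below are Wilson 95% intervals that cover counting error only, and peaks are not replicates of a condition.

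MYC is a basic helix-loop-helix leucine zipper transcription factor that binds DNA as a dimer with MAX. Its preferred sequence is the E-box, and at high MYC levels it is known to occupy many active promoters with or without that sequence. Its best known targets are genes of ribosome production, translation and biosynthesis. In a ChIP peak, width is the stretch over which signal passed the caller's threshold, and fold is the authors' enrichment of precipitate over control at the summit.

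The strongest members illustrate both kinds of promoter in the set. The RefSeq promoter windows (GRCh38.p14, 250 bases before to 50 after a listed start, along transcription) of 5 strong members hold the canonical E-box CACGTG, shown in capitals. They are those with the highest −log10 q among members with a listed promoter and this motif. SLC39A11, a zinc transporter gene, has its window at chr17:73092639-73092938 on the minus strand. MLLT1, which encodes an elongation complex reader of acetylated histones, has it at chr19:6279926-6280225 (minus). FBL, the gene of the ribosomal RNA methyltransferase fibrillarin, has it at chr19:39846330-39846629 (minus). The window of FRA10AC1 is at chr10:93702543-93702842 (minus), and that of KHDRBS1, which encodes the RNA-binding protein SAM68, is at chr1:32013618-32013917 (plus).
SLC39A11: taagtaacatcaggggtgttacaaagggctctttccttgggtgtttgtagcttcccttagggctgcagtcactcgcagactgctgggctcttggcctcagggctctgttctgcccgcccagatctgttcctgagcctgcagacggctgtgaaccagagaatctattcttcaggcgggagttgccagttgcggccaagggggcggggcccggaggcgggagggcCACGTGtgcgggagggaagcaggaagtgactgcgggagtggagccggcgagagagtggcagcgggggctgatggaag
MLLT1: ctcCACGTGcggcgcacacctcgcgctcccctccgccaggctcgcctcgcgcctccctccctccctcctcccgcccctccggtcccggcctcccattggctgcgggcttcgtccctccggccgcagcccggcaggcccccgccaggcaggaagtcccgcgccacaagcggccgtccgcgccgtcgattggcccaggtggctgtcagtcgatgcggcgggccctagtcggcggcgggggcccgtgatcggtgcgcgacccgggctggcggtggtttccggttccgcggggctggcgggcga
FBL: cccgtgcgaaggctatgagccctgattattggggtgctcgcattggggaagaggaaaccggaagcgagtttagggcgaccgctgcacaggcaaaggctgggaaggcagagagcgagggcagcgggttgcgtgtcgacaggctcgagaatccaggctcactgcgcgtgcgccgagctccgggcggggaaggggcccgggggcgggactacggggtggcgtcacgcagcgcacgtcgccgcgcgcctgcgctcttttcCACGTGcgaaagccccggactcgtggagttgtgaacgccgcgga
FRA10AC1: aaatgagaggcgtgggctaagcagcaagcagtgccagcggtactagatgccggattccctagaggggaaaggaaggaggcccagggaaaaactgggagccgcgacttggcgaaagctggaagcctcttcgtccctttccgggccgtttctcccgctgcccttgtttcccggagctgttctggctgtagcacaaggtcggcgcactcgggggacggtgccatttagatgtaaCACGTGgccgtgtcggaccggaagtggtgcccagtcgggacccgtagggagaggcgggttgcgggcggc
KHDRBS1: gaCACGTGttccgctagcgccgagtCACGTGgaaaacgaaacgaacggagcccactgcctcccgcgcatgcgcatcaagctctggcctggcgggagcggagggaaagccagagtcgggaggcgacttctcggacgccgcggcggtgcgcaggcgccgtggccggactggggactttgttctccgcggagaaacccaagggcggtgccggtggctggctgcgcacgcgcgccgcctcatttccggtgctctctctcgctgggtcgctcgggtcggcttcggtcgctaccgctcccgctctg

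In the SLC39A11 window the summit was base 205, counted from 1 at the 5′ end, and the centre of the E-box lay 21.5 bp from it. In the FBL window the summit was base 276 and the E-box centre was 16.5 bp away. In that of FRA10AC1 these values were base 210 and 24.5 bp. KHDRBS1 has 2 E-boxes, centred 5.50 and 17.5 bp from a summit at base 11 of its window. At MLLT1 the summit lay 282 bp upstream of the start, just outside the window, and 37.5 bp from the E-box centre.

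The next windows, without the canonical E-box, belong to the strongest such members by −log10 q. KCTD5, an adaptor gene for cullin ubiquitin ligases, has its window at chr16:2682273-2682572 (plus). That of MRPS17, a mitochondrial ribosomal protein gene, is at chr7:55951627-55951926 (plus), and that of TFIP11, a spliceosome disassembly factor gene, is at chr22:26512424-26512723 (minus).
KCTD5: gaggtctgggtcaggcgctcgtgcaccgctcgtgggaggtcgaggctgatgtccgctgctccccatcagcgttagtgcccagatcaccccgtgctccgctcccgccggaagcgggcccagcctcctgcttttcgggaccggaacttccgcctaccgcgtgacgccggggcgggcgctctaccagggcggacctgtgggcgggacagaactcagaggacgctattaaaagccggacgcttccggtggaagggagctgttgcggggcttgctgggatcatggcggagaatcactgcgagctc
MRPS17: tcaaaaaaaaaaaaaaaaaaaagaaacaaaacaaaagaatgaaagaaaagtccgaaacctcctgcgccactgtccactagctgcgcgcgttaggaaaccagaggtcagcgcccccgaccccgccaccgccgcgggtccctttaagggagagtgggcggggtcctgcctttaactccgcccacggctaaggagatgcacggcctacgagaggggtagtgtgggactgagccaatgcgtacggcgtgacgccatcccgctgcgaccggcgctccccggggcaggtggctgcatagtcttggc
TFIP11: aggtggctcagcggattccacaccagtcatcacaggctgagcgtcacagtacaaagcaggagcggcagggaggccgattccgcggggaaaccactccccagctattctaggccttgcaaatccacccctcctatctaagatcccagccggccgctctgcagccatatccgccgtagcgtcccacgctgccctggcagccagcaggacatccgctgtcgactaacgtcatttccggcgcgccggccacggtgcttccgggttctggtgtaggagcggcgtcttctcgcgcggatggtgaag

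The summits lay at bases 168, 268 and 193 of these windows. KCTD5 has 3 copies of the GC box GGGCGG and 1 of the E-box variant CACGCG, on either strand, and MRPS17 has 2 GC boxes and the CCAAT box. TFIP11 has none of the 11 motifs searched.

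Members were low as well as narrow. This is a description, since width, fold and −log10 q come from the same contrast. Member widths ran from 262 to 499 bp, with a median of 422 bp (quartiles 374 and 461). The median fold was 5.51 (quartiles 4.43 and 7.14, range 2.51 to 23.5). At wider single-end peaks the median fold was 8.68 (quartiles 6.24 and 13.0, up to 119). The median −log10 q was 25.4 in members and 60.1 in wider peaks. Of the members, 101 (13.7%) reached the median fold of the wider peaks, and 113 (15.4%) reached the median −log10 q of the whole list, 47.8. A fold of at least 10 was found at 54 members (7.34%) and at 1741 wider peaks (39.7%).

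**Figure D1:**
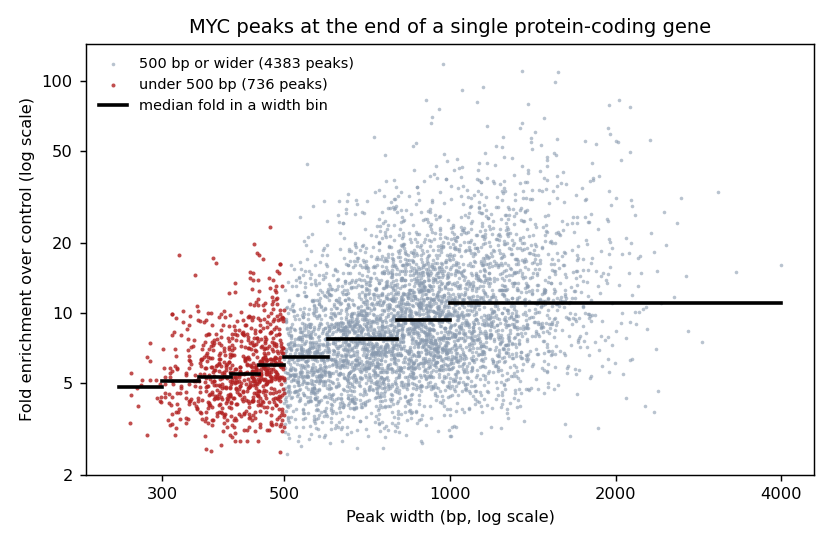
Peak width (bp, log axis) against fold enrichment over control (log axis) for the 5119 peaks at single protein-coding gene ends. Each point is 1 peak, red under 500 bp and grey otherwise, and black bars are the median fold of a width bin. The medians climb from 4.80 in the narrowest bin to 11.0 at 1000 bp or more.

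Fold rose only slightly with width over the limited range of widths inside the set. Its median was 4.80 in the 18 peaks under 300 bp, 5.42 in the 214 between 400 and 450 bp, and 5.93 in the 239 between 450 and 500 bp. Spearman's rho of width with fold was 0.17 over the 736 members and 0.45 over all 5119 single-end peaks. These are descriptions over sites that share libraries and depth. The rule chose members by width, so theirs ran only from 262 to 499 bp, whereas wider peaks reached 4000 bp. A limited range of widths can by itself lower rho. The lower rho in members therefore cannot show whether fold is tied to width more loosely there. The limit of 500 bp cuts a continuous distribution. Among the peaks just inside it, at 499 bp, were those at SLC45A3, a solute carrier gene (fold 10.3), R3HCC1L (4.51) and ACCS (5.23). Among those just outside, at 500 bp, were the peaks at SP4, a GC-box factor gene (9.37), GPR146 (4.66) and STX4, a membrane fusion gene (6.34). Others had these widths too, such as VSIG10 at 499 bp (3.61) and GPSM2 at 500 bp (4.08). From 500 to 600 bp the median fold was 6.44 (588 peaks), beside the 5.93 from 450 to 500 bp.

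Narrow peaks elsewhere were of similar height. The other 1267 peaks under 500 bp had a median fold of 5.73 and a median −log10 q of 24.7. Narrow peaks as a class lay at gene ends less often than wide ones. Of all 2003 narrow peaks, 36.7% (34.7 to 38.9) lay at a single protein-coding end, 6.99% at ends of several genes and 56.3% (54.1 to 58.4) at none. Of peaks of 500 bp or more, 29.5% (28.5 to 30.5) lay at none. The difference was not tested, since sites of 1 list are not independent.

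The strongest members by −log10 q were of mixed function. C8orf33, on chromosome 8 from 145052394 to 145052867, led with −log10 q at 225 and a fold of 10.9. KCTD5 (164, fold 11.0), SLC39A11 (164, fold 9.73), MRPS17 (155, fold 13.8) and MLLT1 (151, fold 14.2) came next. FBL had 138 and a fold of 12.3. TFIP11 (110, fold 6.34) preceded IRAK1, an interleukin-1 receptor kinase gene (105, fold 23.5), and ZNHIT6, an assembly factor gene for small nucleolar ribonucleoproteins (98.6, fold 10.8). CHMP4B, a membrane scission gene (97.3, fold 10.3), and FITM2, a lipid droplet gene (97.2, fold 7.05), were also among the first 12. The peak of IRAK1 spans 154019866 to 154020336 on chromosome X. The ranks by fold and by −log10 q differed at the top. IRAK1 had the highest fold of all members and ranked only ninth, while TFIP11, a place ahead of it, had a fold within the members' quartiles.

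By fold, 6 more members stood high. They were KIAA1586 (19.8), NOM1, a nucleolar protein gene (18.2), TBC1D9B (17.8), TMEM14B (17.3), NME4, a mitochondrial nucleoside diphosphate kinase gene (17.1), and ODAD2, a dynein arm docking gene (16.4). Their −log10 q ran from 63.1 to 89.9. TBC1D9B reached its fold in a peak only 322 bp wide.

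The narrowest peaks ranged from weak to about the members' median. IRF2BP1, a transcriptional corepressor gene, had the narrowest, 262 bp wide at 3.33-fold, with −log10 q at 7.04. POLM, a DNA repair polymerase gene (263 bp, fold 5.52, −log10 q 26.4), and ADAM10, a sheddase gene (263 bp, 4.40, 18.0), followed. PCGF6, a Polycomb complex gene (270 bp, 4.73, 28.1), BIRC3, an inhibitor of apoptosis (271 bp, 3.97, 11.3), and JADE2 (274 bp, 4.87, 25.0) came after them. The 18 members under 300 bp had a median −log10 q of 23.9. The 6 members with the lowest −log10 q were MX1, an interferon-induced gene (7.21), IRF2BP1, PIN4 (7.01), AGBL5 (6.73), UBR1, a ubiquitin ligase gene (6.67), and STK26 (5.87). At STK26 the fold was 3.88. A −log10 q under 10 was found at 30 members (4.08%), against 24 wider single-end peaks (0.548%).

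Strand, which the rule did not use, placed nearly all members at transcription starts. RefSeq promoter windows, which give the strand, were listed for 607 of the 736. Of these, 587 (96.7%, 95 to 97.9) lay within 1000 bp of the annotated start of the gene. The median summit was 14 bp upstream of the nearest listed start (quartiles 130 bp upstream and 62 bp downstream). Within 100 bp of a listed start lay 307 of 607 members (50.6%, 46.6 to 54.5), against 1437 of 3653 wider peaks (39.3%, 37.8 to 40.9). The intervals did not overlap. Between 6-fold and 9-fold, a range chosen after the data were seen, they did, at 48.9% (41.5 to 56.2) of 174 members and 40.6% (37.7 to 43.5) of 1091 wider peaks.

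Wider peaks had a second rise of summits downstream of the start that was not seen in members. From 150 to 300 bp downstream lay 427 of 3653 wider summits (11.7%, 10.7 to 12.8) and 37 of 607 member summits (6.10%, 4.45 to 8.29). Between 6-fold and 9-fold the shares were 12.1% (10.3 to 14.2) and 6.32% (3.57 to 11.0), with intervals that overlapped. This band was chosen after the positions had been seen, and the difference was not tested. The summit lay inside the annotated gene at 339 of 736 members (46.1%, 42.5 to 49.7) and at 52.2% (50.7 to 53.7) of wider peaks.

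**Figure D2:**
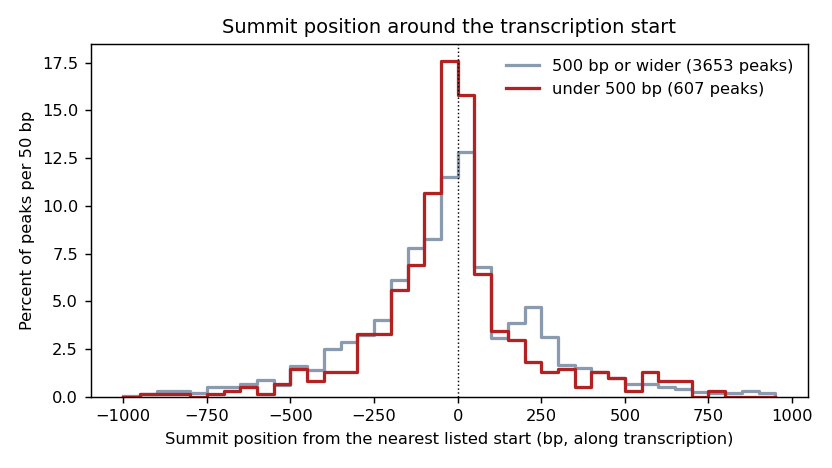
Summit position from the nearest listed transcription start (bp, negative upstream) against the percent of peaks per 50 bp, in red for 607 members and grey for 3653 wider single-end peaks with a listed promoter. Member summits pile up at the start, and the grey shoulder from 150 to 300 bp downstream (11.7% of wider summits) is not seen in red (6.10% of member summits in that band).

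A few members lay at the stop side of a gene. Of the 607, 20 (3.29%, 2.14 to 5.03) were within 1000 bp of the annotated stop alone, against 45 of 3653 wider peaks (1.23%, 0.922 to 1.64). Their median fold was 6.23 (3.63 to 15.1), beside 5.54 for members at starts. The strongest, named after their values were seen, were at ZNF653, a zinc finger gene (fold 13.5, chromosome 19 from 11482493 to 11482899), TNFRSF8, the CD30 receptor gene (9.22, chromosome 1 from 12143709 to 12144118), and NRTN, a neurotrophic factor gene (15.1, chromosome 19 from 5828123 to 5828606). An end of a gene that is not protein-coding lay within 1000 bp of 2 of the 20 summits. GDF15, a stress-induced cytokine gene, had its member 2454 bp downstream of its start, with a fold of 7.39.

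Most member genes had no other summit at their ends. The 736 peaks fell on 725 genes, 3.63% of 19974 protein-coding genes. The member was the only summit at 681 of them. Another 20 had a wider single-end peak as well, 13 had a peak shared with a neighbouring gene, and 11 had 2 members. Of the 11, BCAT2, a branched-chain aminotransferase gene (folds 2.95 and 9.38), and GNAO1, a G protein gene (5.28 and 8.54), had members at opposite ends. The rest had a pair at 1 end. These were ATF6, a stress-response factor gene (9.61 and 7.11), CBFA2T2 (4.16 and 7.13), CYBRD1, an iron reductase gene (9.79 and 4.70), CYTH2 (3.17 and 6.99), PCGF6 (5.25 and 4.73), PPP3CB, a calcineurin gene (2.97 and 9.52), RAD54L, a recombination gene (7.59 and 4.94), SLC43A1 (6.27 and 4.43), and TRAPPC9 (5.43 and 5.56). Close neighbours were more common around members. Another summit lay within 2000 bp of 44 members (5.98%, 4.48 to 7.93) and of 1.92% (1.55 to 2.37) of wider peaks. In 23 of the 44 cases that neighbour was 500 bp or wider. A wider peak leaves less room within 2000 bp for another summit. The rule on width therefore bears on the difference from wider peaks, which was not tested. A split signal and separate sites cannot be told apart in this list.

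The promoters of members were rich in GC and CpG, like those of wider peaks. Over the 364 members whose summit lay in a listed window, 1 window per gene, the median GC content was 66.0% and the median observed over expected CpG ratio was 0.854. Windows under wider summits (1842) had 67.3% and 0.895. The 13410 windows of genes with no summit at an end had 59.7% and 0.564. A TATA box (TATAAA, both strands) stood in 3.85% (2.30 to 6.35) of member windows and 3.96% (3.16 to 4.95) of windows under wider summits. Its share was 12.1% (11.5 to 12.6) in windows of genes without a summit. The motif shares below were not matched for base composition.

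The share with the canonical E-box was lower in members than in wider peaks in each of 3 comparisons, and in 1 of them the intervals did not overlap. The canonical E-box CACGTG, a palindrome read on both strands, stood in 44 of 364 member windows (12.1%, 9.13 to 15.8) and in 326 of 1842 windows under wider summits (17.7%, 16.0 to 19.5), without overlap of the intervals. Its share was 6.53% (6.13 to 6.96) in genes with no summit and 8.34% (7.98 to 8.71) in all 22132 windows of protein-coding genes. Between 6-fold and 9-fold the shares were 11.6% (6.91 to 18.9) of 112 member windows and 15.3% (12.5 to 18.6) of 543 wider ones, with intervals that overlapped. The variant CACGCG stood in 20.9% (17.0 to 25.3) of member windows, 26.9% (24.9 to 28.9) of wider ones and 14.2% of protein-coding windows. The intervals of the first pair overlapped. Either form was present in 30.2% (25.7 to 35.1) and 40.9% (38.7 to 43.2). The variant CATGTG did not follow this order, with 6.32% in members, 6.57% in wider peaks and 8.93% of protein-coding windows. When every member gene with a listed promoter was counted, wherever its summit lay, 62 of 599 (10.4%, 8.16 to 13.0) had CACGTG, against 12.6% (11.5 to 13.7) of 3630 genes with wider peaks, and these intervals overlapped.

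For each of the other promoter motifs, the intervals of members and wider peaks overlapped, which does not show that the shares are alike. The ETS site CCGGAAGT is recognised by activators such as GABPA. It was found in 12.6% (9.61 to 16.4) of member windows, 12.5% (11.1 to 14.1) of wider ones and 5.35% of protein-coding windows. AANATGGC, the core recognised by YY1, stood in 15.1% (11.8 to 19.2), 12.8% (11.4 to 14.4) and 7.37%. The GC box GGGCGG of SP and KLF factors stood in 71.2% (66.3 to 75.6), 75.1% (73.1 to 77.1) and 56.3%. The CCAAT box of NFY stood in 27.7% (23.4 to 32.6), 31.9% (29.8 to 34.1) and 34.6%. The NRF1 motif GCATGCGC stood in 4.12% (2.51 to 6.69) of member windows and 7.38% (6.28 to 8.67) of wider ones (3.74% of protein-coding windows). These intervals overlapped only narrowly. The CRE TGACGTCA stood in 2.75% (1.5 to 4.98), 4.29% (3.45 to 5.31) and 2.26%. The AP-1 site TGANTCA stood in 4.67% (2.94 to 7.35), 3.04% (2.35 to 3.93) and 6.15%. Both strands were searched for each motif. A match is a description of the letters and does not show binding.

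**Figure D3:**
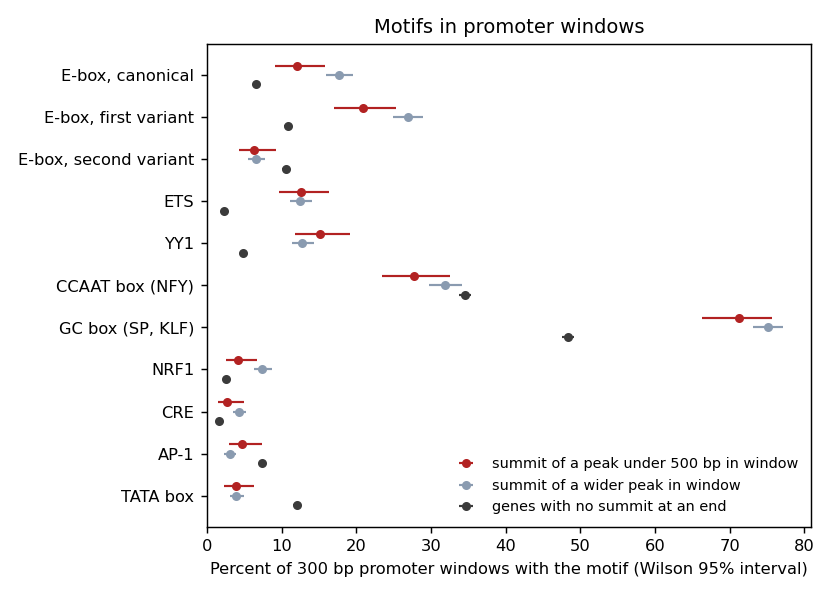
Percent of promoter windows of 300 bp that hold each motif (points) with Wilson 95% intervals (bars). Red is windows under member summits (364), grey windows under wider summits (1842) and black windows of genes with no summit at an end (13410). The canonical E-box stands at 12.1%, 17.7% and 6.53%, whereas the ETS site is at 12.6% and 12.5% in the first 2 groups.

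Where present, the E-box and several other motifs lay close to the summit. In the 44 member windows with CACGTG the nearest copy was a median of 28.5 bp from the summit (quartiles 11.5 and 53.8), and 29 of them (65.9%, 51.1 to 78.1) had it within 50 bp. Under wider summits the median was 20.5 bp, and 73.3% (68.3 to 77.8) had it within 50 bp. The member medians were 31.5 bp for CACGCG, 29.5 bp for CATGTG (23 windows, 60.9% within 50 bp, 40.8 to 77.8) and 37.0 bp for the ETS site (46 windows, 58.7%, 44.3 to 71.7), and these intervals overlapped that of the E-box. For the GC box, which often has several copies a window, it was 43.5 bp, and for the CCAAT box 86.0 bp, with 29.7% (21.7 to 39.2) within 50 bp. The order is a description, since each motif has its own usual place relative to the start.

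**Figure D4:**
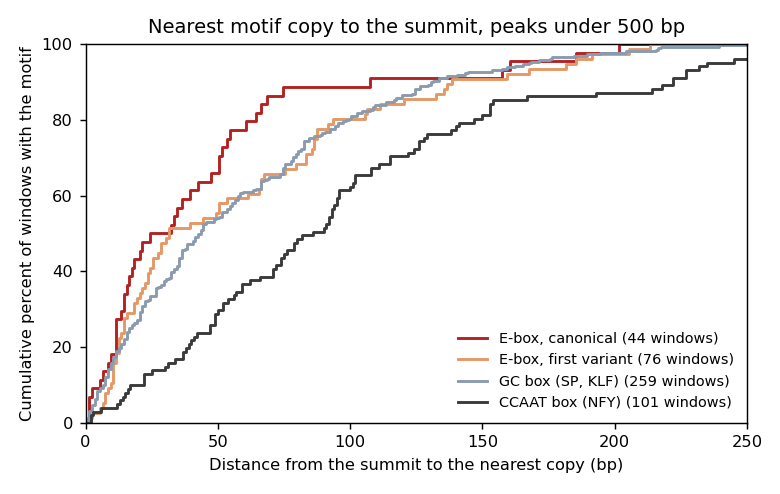
Distance from the member summit to the nearest copy of a motif (bp) against the cumulative percent of windows that hold it. The canonical E-box curve (44 windows) reaches its median at 28.5 bp and the CCAAT curve (101 windows) at 86.0 bp.

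Members with an E-box had higher folds than those without. The median fold was 7.59 (quartiles 5.52 and 9.99) at the 44 members with CACGTG under the summit and 5.61 (4.63 and 7.16) at the 320 without. The median widths were 434 and 422 bp. In wider peaks the median folds were 11.5 and 8.68. Among the members shown above, FRA10AC1 had a fold of 16.3 in a peak 492 bp wide, and KHDRBS1 had 9.28 in 360 bp. Fold comes from the contrast that chose the members, so no test was run.

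Cytosolic ribosomal protein genes, well-known MYC targets, were not in the set. Of all 7511 genes with a summit at an end, called bound here, 9.35% had a member as their strongest peak by −log10 q. Bound genes include those with a peak shared between neighbouring genes, which the rule bars from the set. None of the 78 cytosolic ribosomal protein genes had a member, which allows a share of up to 3.85% (3 counts of the total), a limit above the 3.63% of all protein-coding genes. Of the 78, 74 were bound and 57 had a wider single-end peak. Among 64 ribosome biogenesis genes 57 were bound, and 2 had a member: FBL, and UTP20, a processome gene (fold 8.55). Of 57 nuclear pore and transport genes 50 were bound and 2 had members, the nucleoporin genes AAAS (9.87) and SEC13 (5.39). Of 52 DNA replication genes 47 were bound and 2 had members, GINS2 of the replicative helicase (5.67) and RFC5 of the clamp loader (5.54). In these lists the share of bound genes with a member as the strongest peak was 0%, 3.51%, 4.00% and 4.26%. The interval of the first list (0 to 4.93) ended below the background, and the others (up to 11.9%, 13.5% and 14.2%) contained it. The lists were chosen with earlier results of these data known, so the counts are a description.

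As shares of bound genes, mitochondrial and proteasome genes were near the background. Of 77 mitochondrial ribosomal protein genes 62 were bound and 5 had a member as the strongest peak (8.06%). They were MRPS17, MRPL39 (fold 8.64), MRPS10 (7.19), MRPS14 (5.35) and MRPL55 (6.05). All 5 summits lay within 29 bp of a listed start. Of 28 bound complex I genes, 2 had a member as the strongest peak (7.14%, 1.98 to 22.6), NDUFA12 (5.52) and NDUFB7 (3.30). NDUFB6 had a member (4.80) beside a stronger peak at the same gene. Proteasome genes had 2 of 31 bound (6.45%, 1.79 to 20.7), PSMB6, a catalytic core subunit (13.8), and the activator gene PSME1 (3.30). Peaks shared with a neighbouring gene lay at 31 bound mitochondrial ribosomal, 18 complex I and 7 proteasome genes. These shares were not corrected for that. Genes with a wider single-end peak numbered 26, 8 and 22, beside 5, 3 and 2 genes with a member.

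Zinc finger genes gave the most members of the groups counted. Of 510 genes named ZNF with a number, 44 had a member (8.63%, 6.49 to 11.4), and in 43 of the 238 bound ones (18.1%, 13.7 to 23.4) it was the strongest peak. Both intervals lie above the backgrounds of 3.63% and 9.35%. The median fold of these members was 5.31 (3.44 to 14.6). Besides ZNF653, the strongest by −log10 q was ZNF317 (57.8, fold 9.60), and ZNF562 had the highest fold (14.6) in a peak 344 bp wide. Most zinc finger genes of this name encode DNA-binding repressors and lie in clusters. ZNF501 and ZNF502 on chromosome 3 (6.07 and 8.41), and ZNF619 and ZNF620 on the same chromosome (5.26 and 4.64), lie close together and each had a member of their own. These pairs and ZNF562 were picked after their values were seen.

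The zinc finger share differed by chromosome. On chromosome 19, which holds many of the clusters, 25 of 65 single-end peaks at these genes were members (38.5%, 27.6 to 50.6). On the other chromosomes 19 of 124 were (15.3%, 10.0 to 22.7), close to 14.4% for all single-end peaks. At other genes of chromosome 19 members made up 44 of 234 (18.8%, 14.3 to 24.3). Members formed 23.1% (18.7 to 28.2) of all single-end peaks on chromosome 19 and 25.2% (18.0 to 34.2) on chromosome X, where 27 of 107 were members. These were the highest shares of any chromosome. The remaining chromosomes together had 13.6% (12.6 to 14.6), and singly they ran from 6.33% on chromosome 18 to 20.2% on chromosome 13. Members on X had a median fold of 6.31 beside 9.87 at wider peaks there.

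Several smaller groups had wide intervals. Of 10 bound extracellular matrix and bone lineage genes, 3 had a member as the strongest peak (30.0%, 10.8 to 60.3): the protease inhibitor genes TIMP1 (fold 7.76) and TIMP2 (4.78), and COL12A1 (4.29). Of 6 bound HOX genes, which pattern the body axis, 3 had one, among them HOXC13 (6.60). Of all 39 HOX genes, 7.69% (2.65 to 20.3) had a member, an interval that contained the 3.63% of all protein-coding genes. Symbols that begin with RAB had 5 of 24 bound genes (20.8%, 9.24 to 40.5), led by −log10 q by the vesicle GTPase genes RAB22A (8.02) and RAB6A (7.16). The others were RAB5C (8.39), RAB36 (4.48) and RAB3IP (5.30), which encodes an interacting protein. Solute carriers had 18 member genes of 379, led by SLC39A11 and SLC25A16, a mitochondrial carrier gene (11.5), and in 17 of the 128 bound ones (13.3%, 8.46 to 20.2) the member was strongest. Cilium genes had 4 of 30 bound, BBS9 (6.58), TCTN1 (6.58), BBS10 (3.76) and DYNC2H1 (3.68), and TGF-beta and BMP genes had 2 of 14, the receptor gene BMPR1B (8.72) and LTBP3 (7.76). For shares of bound genes, each interval except that of the matrix genes and of HOX genes (18.8 to 81.2) contained the background of 9.35%. Peaks shared with a neighbour lay at 17 of the 30 bound cilium genes and 2 of the 10 matrix genes. They lay at 0 of the 6 HOX and 0 of the 14 TGF-beta and BMP genes, and the shares were not corrected for this.

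**Figure D5:**
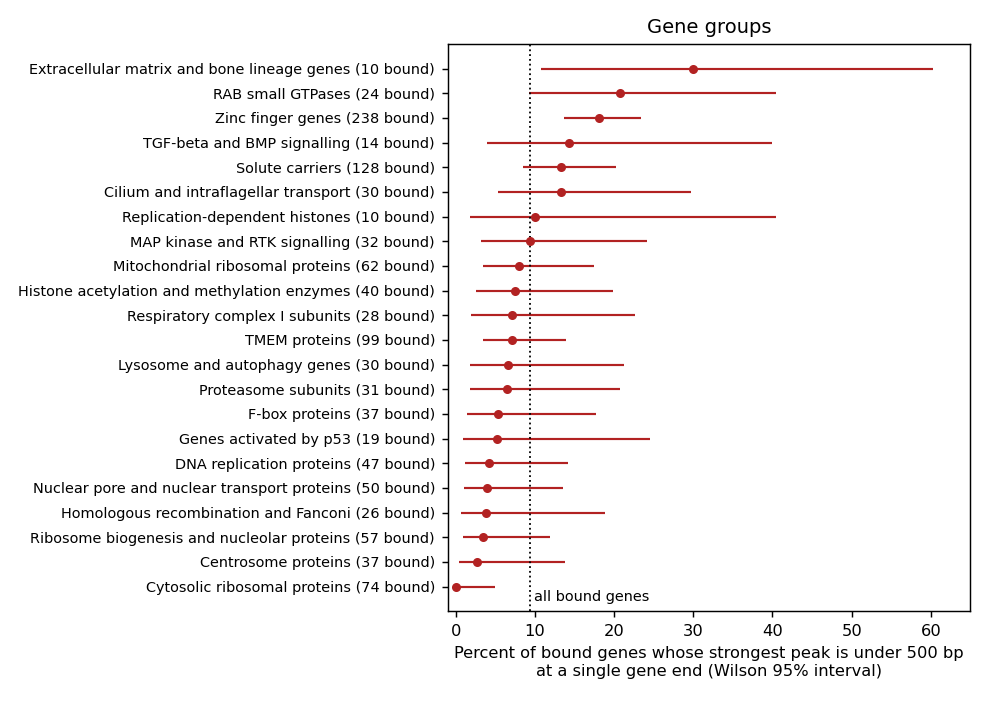
Percent of bound genes whose strongest peak is a member (points) with Wilson 95% intervals (bars), for gene groups with at least 10 bound genes. The dotted line marks 9.35% of all 7511 bound genes, with zinc finger genes above it at 18.1% and cytosolic ribosomal protein genes at 0%.

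In each of the remaining lists the interval of the share of bound genes contained the background of 9.35%. The members among signalling kinases were MAP2K2 (fold 5.72), ARAF (6.16) and MAP3K7 (3.64), of 32 bound genes (9.38%). Among chromatin enzymes they were the deacetylase genes HDAC5 (5.45) and HDAC6 (5.23) and the demethylase gene KDM6A (4.12), of 40 (7.50%). The proton pump gene ATP6V1B2 (9.88) and the protease gene CTSB (3.85) were the lysosomal members, of 30 (6.67%). F-box genes had FBXO10 (4.51) and FBXO34 (3.86), of 37 (5.41%). Symbols with TMEM had 7 of 99 (7.07%), led by TMEM131L (11.2) and TMEM14B. CEP126 (5.21) was the 1 centrosome member of 37 (2.70%), RAD54L the 1 recombination member of 26 (3.85%), GADD45A (4.51) the 1 p53-activated member of 19 (5.26%), KCNJ8 (4.73) the 1 potassium channel of 7 (14.3%), and H4C9 (5.43) the 1 histone gene of 10 (10.0%). In the MYC and MAX network MXD4, a MAX partner gene, had a member (4.84, −log10 q 18.0), 1 of 6 bound genes (16.7%). None of 392 olfactory receptor genes, which are silent in most cells, and none of 55 keratin genes had a member. This allows shares of up to 0.765% and 5.45% by the limit of 3 counts, beside 3.63% of all protein-coding genes. Only 2 olfactory receptor and 3 keratin genes were bound at all, so the lack of members says little about peak width. The intervals of their shares of bound genes were 0 to 65.8% and 0 to 56.1%.

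Genes with members did not differ much in size from others. Their median annotated length, counted per peak, was 31328 bp (quartiles 14108 and 86536), beside 33584 bp (14404 and 76734) at wider peaks. An end of a gene that is not protein-coding lay within 1000 bp of the summit at 163 members (22.1%, 19.3 to 25.3) and at 28.9% (27.6 to 30.3) of wider peaks. The summit stood near the middle of the peak in both classes, with medians of 0.491 and 0.502 of the width from its lower coordinate.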

How the data were processed

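The values come from 1 peak list that the authors deposited for 2 MYC precipitates and 1 input. Per the labels' protocols, fixation was 10 min in 1% formaldehyde, 10% mouse cells were added, chromatin was sheared to fragments of 200 to 500 bp, and library preparation took 5 ng of DNA and 9 PCR cycles. MACS2, Picard, SAMtools, Bowtie2 and cutadapt appear in the submitters' processing notes, as do hg38, hg19 and mm10. Versions, settings, scaling and any pooling of the precipitates were not given in the sources used here. The deposited list carries fold enrichment as a linear ratio, −log10 q-values at the summit, a score that was not used, and the summit offset. Its name gives hg38.

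The summit, as the list's start plus offset, was compared with both ends of each protein-coding gene of RefSeq GRCh38.p14 on chromosomes 1 to 22 and X. Counting the summit from 1 gave the same number of members, 736. Strand and sequence came from RefSeq promoter windows (GRCh38.p14), listed for 15812 of 19974 protein-coding genes. A gene with several listed starts takes the one nearest its summit. Analyses used Python 3.11.15, numpy 2.4.6 and pandas 2.3.3, and gene assignment and motif search were tested on simulated data. No statistical test was run: the list has no replicates, and width, fold and −log10 q come from the contrast that chose the members.

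Named are the 12 members with the highest −log10 q, 6 more by fold, the 6 narrowest, the 6 weakest, 3 on each side of the width limit, the 2 strongest of each of 17 gene lists and 10 symbol families, MYC network genes, genes with 2 members, and members of groups with 5 or fewer. Some genes that this rule picks are not reported here. The members, lists and motifs were chosen with earlier results of these data known. Alternatives were other width limits, windows and peak positions, noncoding gene ends, a −log10 q minimum and a second E-box form. Leaving out a library was not run, as the list has no values per library.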

Additional observations from a re-analysis of the deposited data

How the results depend on the processing

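Of 45 values recomputed under other settings, 36 stayed within 1.5 times the reported count or within the 95% interval of the reported median or share, and 9 did not. The intervals of medians are not Wilson intervals and are not printed here. With a width limit of 400 bp there were 283 peaks on 279 genes, with a median fold of 5.15 and a median −log10 q of 23.3. With 600 bp there were 1324 peaks on 1304 genes, with 5.81 and 28.6. These shifts follow from the limit, which selects fewer or more peaks of a continuous distribution. Counting CACGCG as an E-box raised the share of member genes with one from 10.4% to 26.5%. Under windows of 500 and 2000 bp, the peak centre, 1 gene of any class and a −log10 q of at least 10, the number of members ran from 573 to 752 and the median fold from 5.47 to 5.58. The E-box share kept within 9.44% and 12.1% under all settings that counted CACGTG alone, including the restrictions to summits in a listed window and to folds of 6 to 9, which were chosen after seeing the data. No paired analysis was possible because the list gives no values per library. Depth and the agreement of the 2 precipitates could not be assessed, so members near the caller's threshold carry an unknown error.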
